A study of Mus musculus with 6 samples.

Results

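The genes described here are those that encode splicing factors and heterogeneous nuclear ribonucleoproteins (hnRNPs). They were taken by name, as every row of the deposited table whose symbol starts with Srsf, Hnrnp, Snrp, Sf3a or Sf3b, without the 3 symbols that end in -ps or in -ps and a digit. That gave 52 of the 24181 genes listed. They fall into 12 Snrp genes (proteins of small nuclear ribonucleoproteins, snRNPs), 3 Sf3a and 6 Sf3b genes, 11 Srsf genes (SR proteins) and 20 Hnrnp genes. The rule uses symbols only and no measured value, though it was chosen with earlier results of these data known.

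RNA was measured in MC38, a line derived from a colon adenocarcinoma of the mouse, by bulk sequencing of barcoded 3' ends. The labels name 6 samples in 2 groups of 3: parental cells of genotype WT, and cells of the same line that express STING-N153S. Both were grown in standard medium with no treatment named. No agent, time point, promoter or clone is given for either group. The levels below are those of the 3 parental libraries, called replicates 1 to 3. No column could be tied to a STING-N153S sample from the labels, so those samples were not analysed here and the groups are not compared. The annotation names each parental barcode WT-BR with its replicate number, but no label says that the samples came from separate cultures. The p-values below measure only the spread between these samples, which may be technical.

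The parental libraries held 3210024 to 4020023 counts and 16224 to 16892 genes with a count. Of 12 intestinal epithelial markers 5 were analysed, and 0 reached a mean of 1 CPM (a count divided by the library total, times 1e+06); Cdx1 and Lgr5 had 0 counts, and the summed level of the 5 was 0.281 ± 0.299 CPM (SD, n = 3). The 6 mesenchymal markers were all at 1 CPM or more, with Vim at 3058 ± 176 CPM (SD, n = 3). The 4 leukocyte markers and the 3 endothelial markers that were analysed all stayed under 1 CPM. Of 6 neuronal markers 4 were analysed, and 2 reached 1 CPM, Tubb3 at 7.66 ± 0.18 CPM and Map2 at 2.96 ± 1.00 CPM (SD, n = 3). Syt1 and Elavl3 stayed under 1 CPM. The defining markers of intestinal epithelium that were analysed were thus at or near 0 in these cells.

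Introns are removed from pre-mRNA by the spliceosome, which is built from the U1, U2, U4, U5 and U6 snRNPs. Each of U1, U2, U4 and U5 carries a ring of Sm proteins around its RNA, and U1 and U2 add proteins of their own. The SF3A and SF3B complexes belong to the U2 snRNP and hold it at the branch site. SR proteins bind exonic enhancers through RNA recognition motifs and recruit the spliceosome through arginine- and serine-rich tails, while hnRNPs coat nascent transcripts and often repress exon use. Many genes of both families are known to regulate themselves through alternative exons that send the transcript to nonsense-mediated decay (NMD).

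All 6 promoter windows below come from RefSeq on GRCm38.p6 and run 5' to 3' on the gene's strand, from 250 bases before to 50 bases after a start site. They are shown because they belong to the 2 highest genes (Hnrnpab and Hnrnpa2b1), the gene that varied most between the libraries (Hnrnpa0), 2 subunits of the U2 snRNP (Sf3a3 and Sf3b6), and the gene without a count (Srsf12). Capitals mark matches, on either strand, to any of 6 motifs: the TATA box (TATAAA), the box bound by NF-Y (CCAAT), the GC box (GGGCGG), the ETS core (CCGGAAG), the cAMP response element (TGACGTCA) and the palindromic NRF1 site.
Hnrnpab: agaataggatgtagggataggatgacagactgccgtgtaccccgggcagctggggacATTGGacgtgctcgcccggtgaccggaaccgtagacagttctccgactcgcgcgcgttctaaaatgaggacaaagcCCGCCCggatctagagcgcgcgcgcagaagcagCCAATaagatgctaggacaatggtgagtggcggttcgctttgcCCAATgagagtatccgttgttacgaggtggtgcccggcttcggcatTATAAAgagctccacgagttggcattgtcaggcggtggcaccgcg
Hnrnpa2b1: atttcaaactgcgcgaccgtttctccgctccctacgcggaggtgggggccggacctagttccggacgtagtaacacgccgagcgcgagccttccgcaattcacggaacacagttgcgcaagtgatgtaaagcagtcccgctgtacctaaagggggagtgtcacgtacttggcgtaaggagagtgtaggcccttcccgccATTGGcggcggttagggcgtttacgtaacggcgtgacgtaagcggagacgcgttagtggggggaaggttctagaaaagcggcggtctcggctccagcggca
Hnrnpa0: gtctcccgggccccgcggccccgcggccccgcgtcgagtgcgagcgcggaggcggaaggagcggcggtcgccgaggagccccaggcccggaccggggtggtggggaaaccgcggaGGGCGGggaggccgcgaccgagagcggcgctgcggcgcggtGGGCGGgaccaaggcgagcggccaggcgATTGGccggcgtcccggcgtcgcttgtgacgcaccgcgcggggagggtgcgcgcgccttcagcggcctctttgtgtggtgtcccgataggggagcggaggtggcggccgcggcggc
Sf3a3: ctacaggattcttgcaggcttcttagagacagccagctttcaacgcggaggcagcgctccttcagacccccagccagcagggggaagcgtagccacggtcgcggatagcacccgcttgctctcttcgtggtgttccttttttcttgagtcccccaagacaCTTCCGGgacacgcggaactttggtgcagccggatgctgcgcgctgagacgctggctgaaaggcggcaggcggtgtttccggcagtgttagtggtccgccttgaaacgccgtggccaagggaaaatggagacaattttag
Sf3b6: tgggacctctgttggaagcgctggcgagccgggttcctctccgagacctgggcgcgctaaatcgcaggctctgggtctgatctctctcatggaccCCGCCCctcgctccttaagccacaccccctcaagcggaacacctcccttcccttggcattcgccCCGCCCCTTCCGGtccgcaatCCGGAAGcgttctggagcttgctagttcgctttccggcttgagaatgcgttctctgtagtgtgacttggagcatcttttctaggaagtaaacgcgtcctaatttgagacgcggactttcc
Srsf12: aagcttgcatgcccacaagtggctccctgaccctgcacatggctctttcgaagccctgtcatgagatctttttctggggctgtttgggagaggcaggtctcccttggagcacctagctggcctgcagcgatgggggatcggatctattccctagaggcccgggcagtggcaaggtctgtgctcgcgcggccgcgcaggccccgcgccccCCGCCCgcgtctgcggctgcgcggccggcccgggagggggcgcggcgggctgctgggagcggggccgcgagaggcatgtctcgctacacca
The windows lie at chr11:51606832-51607131 on the minus strand (Hnrnpab), chr6:51469845-51470144 on the minus strand (Hnrnpa2b1), chr13:58128507-58128806 on the minus strand (Hnrnpa0), chr4:124714611-124714910 on the plus strand (Sf3a3), chr12:4817358-4817657 on the plus strand (Sf3b6) and chr4:33209022-33209321 on the plus strand (Srsf12). In Sf3b6 a GGGCGG match and a CCGGAAG match touch, so that their capitals run together. The TATAAA match of Hnrnpab lies 5 bases after the RefSeq start site used for the window. The GENCODE M21 start of the gene, at 51606847, lies further downstream, so the match comes before that start. Whether it acts as a TATA box was not tested.

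The motifs were counted by class, and differences between classes were not tested. The sequence CCGGAAG, the core that ETS family transcription factors bind, was in a window of 3 of 3 Sf3a genes, 3 of 4 Sf3b genes and 4 of 9 Snrp genes, in 4 of 11 Srsf genes, and in 2 of 18 Hnrnp genes, Hnrnpd and Hnrnpf. The CCAAT box, read by the trimeric factor NF-Y, was in a window of 13 of 18 Hnrnp genes, 4 of 11 Srsf genes, 3 of 9 Snrp genes, 2 of 4 Sf3b genes and 0 of 3 Sf3a genes. The GC box GGGCGG was in a window of 10 of 11 Srsf genes, 14 of 18 Hnrnp genes, 5 of 9 Snrp genes, 2 of 3 Sf3a genes and 2 of 4 Sf3b genes. Classes hold few genes, and the 18 Hnrnp genes have 27 windows. Counted by window, CCGGAAG was in 35.6% of 59 windows of these genes, 25% of 2080 windows of all genes at 100 CPM or more, and 8.86% of all 32851 windows. CCAAT was in 45.8%, 39.7% and 37.4% of the same sets, and GGGCGG, the box bound by SP1-like factors, in 72.9%, 67.4% and 35.7%. TATAAA was in 10.2%, 7.69% and 13.6%, TGACGTCA in 3.39%, 3.70% and 1.79%, and the NRF1 site in 1.69%, 2.79% and 0.971%. The median GC content was 61.0% in the 59 windows and 52.7% in all windows. Windows were found for 45 of the 52 genes and several genes have more than 1. Matches of letters are a description and were not tested for binding.

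Most of these genes were highly counted in parental cells. CPM here relates a gene's count of 3' ends to the library total, and it was not divided by length because only the end beside the poly(A) tail is amplified. Of the 52 genes, 51 had a count in every library. By mean over the libraries, 51 reached 1 CPM, 50 reached 10 CPM, 40 reached 100 CPM and 3 reached 1000 CPM. Of all 24181 genes, 11964, 7553, 2064 and 131 reached those levels. The median gene of the group stood at 289 CPM by mean over the libraries, against 0.941 CPM over all genes. Their summed counts made up 1.86%, 1.89% and 1.89% of replicates 1 to 3. In a bulk sample, fewer cells with a transcript and less of it per cell cannot be told apart. How well the 3' end of each gene is captured was not measured. Ratios between genes below are thus ratios of counts, and need not be those of mRNA or protein.

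**Figure D1:**
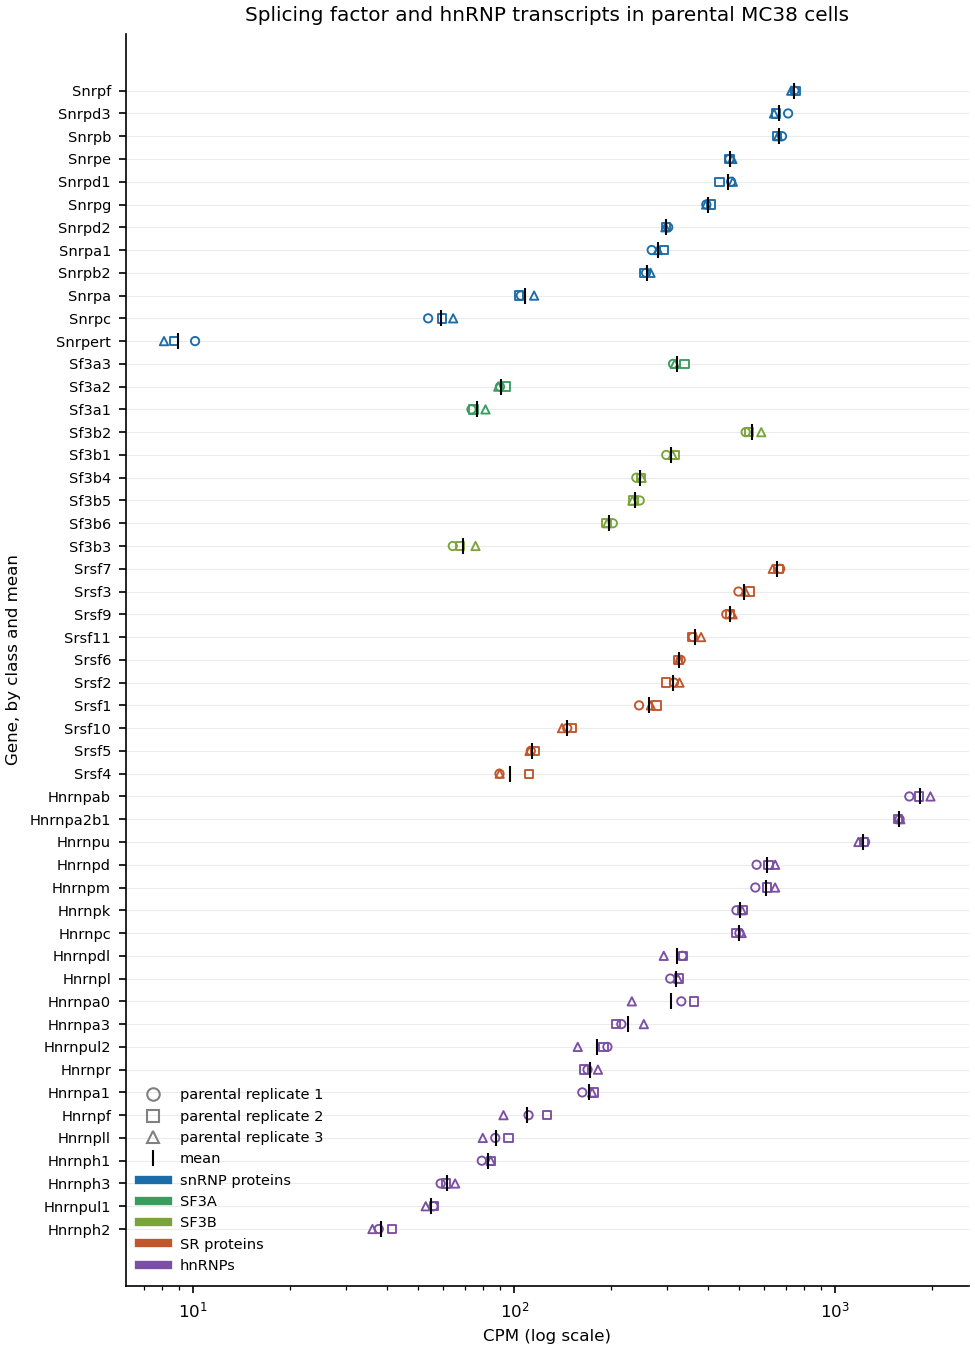
CPM (log axis) of the 51 genes with a count, 1 row a gene, ordered by class and by mean; open symbols are the 3 parental libraries, the tick is their mean and colour gives the class. The hnRNPs run from 38.5 CPM for Hnrnph2 to 1834 CPM for Hnrnpab, and Snrpert lies apart at 8.98 CPM.

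Among the Snrp genes, the 7 that encode the Sm ring stood highest. Snrpf, which encodes SmF (chromosome 10, 93583029 to 93589706, GRCm38), had 746, 754 and 729 CPM in replicates 1 to 3. Snrpd3, for SmD3, had 713, 653 and 645 CPM, and Snrpb, for SmB, had 682, 659 and 663 CPM. These 3 genes gave 47.0 ± 0.89% of the counts of the 12 Snrp genes (SD, n = 3). Snrpe had 468, 469 and 478 CPM, Snrpd1 474, 436 and 479.7 CPM, Snrpg 397, 410.2 and 396 CPM, and Snrpd2 302, 296 and 296 CPM. The products form a ring with 1 copy of each, and the count of the highest of the 7 genes exceeded that of the lowest 2.49 ± 0.04 times (SD, n = 3). In the order of the 7 means, neighbours overlapped between libraries in 2 of 6 steps, Snrpd3 with Snrpb and Snrpe with Snrpd1. Snrpn, which encodes the SmN relative of SmB, was not analysed here.

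Of the Snrp genes, the 2 whose products are particular to U1 were counted less than the ring. Snrpa, for the A protein of U1, which binds a stem-loop of U1 RNA, had 105, 103 and 115 CPM. Snrpc, for the C protein of U1, which helps read the 5' splice site, had 53.9, 59.5 and 64.5 CPM. Both lay below each Sm gene in every library. For U2, Snrpa1 had 268, 292 and 280.4 CPM and its partner Snrpb2 257, 253 and 266 CPM. Their products bind U2 RNA as a pair, and the ratio of their counts was 1.08 ± 0.06 (SD, n = 3), with Snrpa1 the higher in 3 of 3 libraries. Snrpert, with 10.1, 8.71 and 8.10 CPM, is annotated as a processed pseudogene of 279 bases (chromosome 2, 131322088 to 131322366). It lies at least 95% identical to the 3' end of Snrpe over 100 bases or more and inside Rnf24 on the same strand, so its counts are uncertain.

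The subunits of SF3A and SF3B were not counted at 1 level. Sf3a3 had 312, 339 and 316 CPM, above Sf3a2 with 90.2, 94.0 and 89.1 CPM and Sf3a1 with 73.5, 74.6 and 81.3 CPM. The ratio of Sf3a3 to Sf3a1, whose products meet in the same trimer, was 4.23 ± 0.33 (SD, n = 3), and the 3 genes did not overlap between libraries. In SF3B, Sf3b2, whose product contacts the RNA next to the branch site, led with 526, 539 and 588 CPM. Sf3b1, the scaffold that is often mutated in blood cancers, had 297, 316 and 311 CPM. The small subunits followed, with Sf3b4 at 240.0, 248 and 249 CPM, Sf3b5 at 246, 235 and 233 CPM and Sf3b6, the protein that touches the branch-point adenosine, at 203, 194 and 195 CPM. Sf3b3 was the lowest, with 64.3, 67.7 and 75.7 CPM. Sf3b1 had 4.47 ± 0.31 times the count of Sf3b3 (SD, n = 3), with which its product forms the core of the complex. Sf3b2 exceeded Sf3b3 by 7.97 ± 0.20 times (SD, n = 3). Phf5a, the subunit without an Sf3b symbol, had 191, 199 and 198 CPM, close to Sf3b6.

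Of the 11 Srsf genes, 10 were counted, 9 of them at a mean of 100 CPM or more. Srsf7 (chromosome 17, 80200080 to 80207307), which also has a role in mRNA export, led with 674, 666 and 639 CPM. Srsf3, the smallest SR protein and close to Srsf7 in sequence, had 499, 540.3 and 524 CPM, and Srsf9 had 458, 471 and 479 CPM. These 3 genes gave 50.4 ± 0.38% of the Srsf counts (SD, n = 3). Srsf11 had 359.9, 357 and 382 CPM, Srsf6 329.9, 323 and 326 CPM, Srsf2 314, 297 and 327 CPM and Srsf1, the founding member of the family, 245, 277 and 266 CPM. The lower genes were Srsf10 with 146, 151 and 141 CPM, Srsf5 with 113, 116 and 112 CPM and Srsf4 with 89.9, 111 and 90.0 CPM. Of 9 neighbouring steps in the order of the 10 means, 1 overlapped between libraries, Srsf6 with Srsf2. Srsf12, the paralog of Srsf10, had 0 counts in all 3 libraries, a result that permits a level of up to 0.283 CPM (3 of their 10588955 counts) for counting error alone.

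The hnRNPs held the highest genes of the whole set. Hnrnpab (chromosome 11, 51600100 to 51606847) had 1701, 1822 and 1979 CPM and ranked 54 among all genes by mean. Hnrnpa2b1 (chromosome 6, 51460932 to 51469894), which packages pre-mRNA and sorts RNA for transport, had 1587, 1570.1 and 1594 CPM. Hnrnpu, a scaffold attachment factor, had 1239, 1229.6 and 1181 CPM. Together these 3 gave 51.5 ± 0.68% of the counts of the 20 Hnrnp genes (SD, n = 3). A middle group held Hnrnpd (AUF1, an AU-rich element binder) with 569, 619 and 649.8 CPM, Hnrnpm with 564, 613 and 649.5 CPM, Hnrnpk, which binds C-rich runs, with 492, 514 and 512 CPM, and Hnrnpc, which binds U-rich runs, with 503, 491 and 511 CPM. Their ranges overlapped within each of the pairs Hnrnpd and Hnrnpm, and Hnrnpk and Hnrnpc.

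Below them, Hnrnpdl had 334, 336 and 292 CPM, Hnrnpl, which binds CA repeats, 306, 325 and 323 CPM, Hnrnpa0 331, 363 and 232 CPM and Hnrnpa3 216, 207 and 253 CPM. Hnrnpul2 had 195, 189.8 and 158 CPM, Hnrnpr 169, 165 and 182 CPM and Hnrnpf, a binder of G-rich runs, 111, 126 and 92.5 CPM. Hnrnpa1, the relative of Hnrnpa2b1 that silences many exons, had 163, 177 and 175 CPM. The ratio of Hnrnpa1 to Hnrnpa2b1 was 0.108 ± 0.005 (SD, n = 3). The lowest were Hnrnpll with 87.2, 96.0 and 79.8 CPM, Hnrnph1 with 79.2, 84.6 and 84.4 CPM, Hnrnph3 with 58.9, 61.2 and 65.4 CPM, Hnrnpul1 with 56.0, 56.2 and 53.0 CPM and Hnrnph2 with 37.8, 41.5 and 36.1 CPM. The count of Hnrnpab exceeded that of Hnrnph2 45, 43.9 and 54.8 times in replicates 1 to 3. In all, 9 of 19 neighbouring steps in the order overlapped between libraries.

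Ratios within a library compare the counts of paralogs or partners without any scaling between libraries, and 14 pairs were compared. The same gene of each pair was the higher in 3 of 3 libraries in every pair. Hnrnpl exceeded Hnrnpll, its relative known from T cells, 3.65 ± 0.36 times, and Hnrnph1 exceeded Hnrnph2 2.16 ± 0.16 times (SD, n = 3). Srsf2 exceeded Srsf5 2.76 ± 0.19 times, while Srsf3 stood at 0.791 ± 0.043 of Srsf7 and Srsf1 at 0.560 ± 0.027 of Srsf9 (SD, n = 3). Hnrnpul1 stood at 0.306 ± 0.026 of Hnrnpul2, and Snrpe at 0.635 ± 0.018 of Snrpf (SD, n = 3). Snrpa exceeded Snrpc 1.82 ± 0.11 times and Snrpd1 exceeded Snrpd2 1.55 ± 0.08 times (SD, n = 3). Hnrnpd exceeded Hnrnpdl 1.70, 1.85 and 2.22 times in replicates 1 to 3. The exact (Clopper-Pearson) 95% interval of the pooled ratio of that pair, 1.83 to 1.98, did not hold replicates 1 and 3; such an interval covers counting error only and bounds the pooled value.

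**Figure D2:**
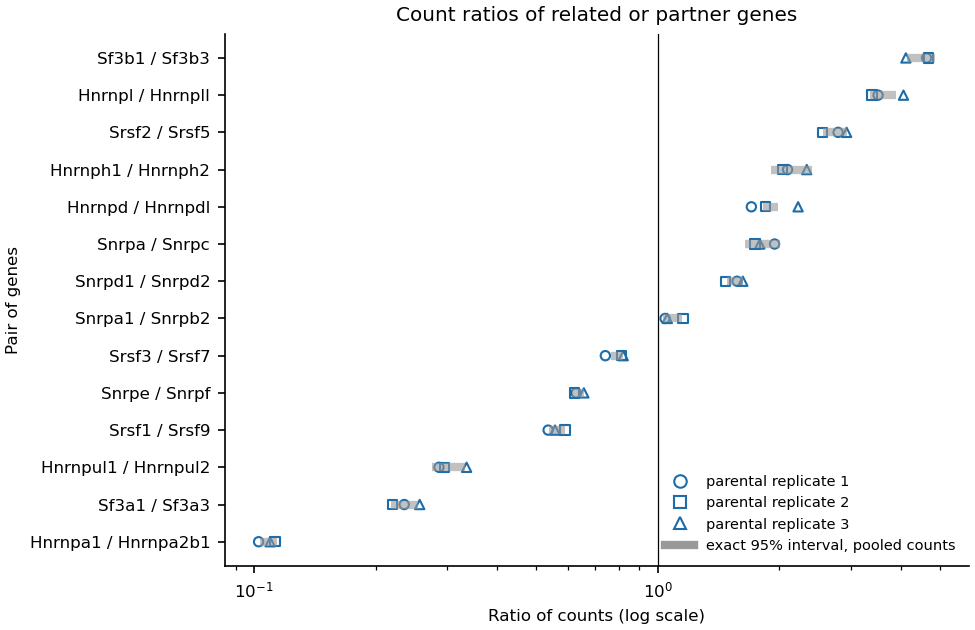
Ratio of counts (log axis) of 14 pairs of genes in each parental library (symbols), with the exact 95% interval of the pooled counts (bars). All libraries of a pair lie on the same side of 1, from 0.108 for Hnrnpa1 over Hnrnpa2b1 to 4.47 for Sf3b1 over Sf3b3 by mean.

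Each gene was next tested for differences among the 3 parental libraries, a test of libraries and not of conditions. A chi-square test of counts, against shares set by median-ratio scaling, with Benjamini-Hochberg adjustment over the 11118 genes with enough counts, called 8 of the 51 genes tested. Over all genes tested, 2.80% were called, and over the 2064 genes at 100 CPM or more, where counts are higher and smaller differences are seen, 10.1% were called. All 8 genes were among the 40 of this set at 100 CPM or more. At an unadjusted p under 0.05 the numbers were 14 of 51 and 1466 of 11118. The calls fell on 7 of 20 hnRNPs, 1 of 12 Snrp genes, 0 of 9 Sf3a and Sf3b genes and 0 of 10 Srsf genes tested; whether the classes differ was not tested. The median level of the hnRNPs was 267 CPM. Those of Sf3a (91.1 CPM) and Sf3b genes (242 CPM) lay lower. Those of Snrp (349 CPM) and Srsf genes (313 CPM) lay higher. Fewer counts limit what the test can see, and whether level bears on the calls by class was not tested. The genes without a call at an unadjusted p under 0.05 were Srsf1, Srsf2, Srsf4, Snrpd1, Hnrnpdl and Sf3b2. Sf3b2 came close to a call by the chi-square test (adjusted p = 0.0605).

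Hnrnpa0 varied most. Its 331, 363 and 232 CPM put replicate 3 lowest, at 0.670 of the mean of the other two after scaling (adjusted p = 1.36e-19). The gene has a single exon (chromosome 13, 58125879 to 58128556), and so has Sf3b5, which stood in replicate 3 at 0.970 of the mean of the other two. Hnrnpf, at 0.781 (adjusted p = 0.00959), and Hnrnpul2, at 0.819 (adjusted p = 0.0241), were also lowest in replicate 3. Over all genes tested, 1.25% were called with replicate 3 as the lowest library and 1.12% with it as the highest. In the opposite direction, Hnrnpab was highest in replicate 3, with 1979 CPM against 1701 and 1822, a log2 difference of 0.17 from the mean of the other two after scaling (adjusted p = 2.47e-12). Hnrnpa3 stood there at 1.2 times that mean (adjusted p = 0.00596), Hnrnpm at 1.10 times (adjusted p = 0.00694) and Hnrnpd at 1.09 times (adjusted p = 0.0156). Snrpd3 was highest in replicate 1, with 713 CPM against 653 and 645 (adjusted p = 0.0132). Hnrnpdl, at 0.873 in replicate 3, did not pass (adjusted p = 0.0642).

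The calls depended on single libraries. Without replicate 3, 0 of 51 genes were called and 0.548% of all genes tested; without replicate 1, 4 of 51 (Hnrnpa0, Hnrnpa3, Hnrnpab and Hnrnpf) and 1.92% of all genes, and without replicate 2, 8 of 51 and 2.48%. Of the 8 called without replicate 2, 6 were among the 8 called with all libraries, and Hnrnpdl and Hnrnpu came in. The common biological coefficient of variation over all genes, from edgeR, was 0.0568 with the 3 libraries and 0.0323 without replicate 3.

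Apart from Hnrnpa0 the differences were small. The highest library exceeded the lowest by under 1.2 times in 45 of the 51 genes and by over 1.5 times in 1, Hnrnpa0. The median of that ratio was 1.07 over the 51 genes, 1.08 over all genes at 100 CPM or more and 1.21 over all genes tested. Hnrnpa2b1 had the smallest ratio of the set, 1.02, at 5118 to 6312 counts. By class the median coefficient of variation was 3.38% for the 12 Snrp genes (1.88% for the Sm ring among them), 4.44% for SF3A, 3.00% for SF3B, 3.57% for Srsf genes and 6.0% for hnRNPs. Replicate 3 was the highest library in 21 of 51 genes and the lowest in 18, and over all genes tested it was the highest in 3886 and the lowest in 3938 of 11118.

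**Figure D3:**
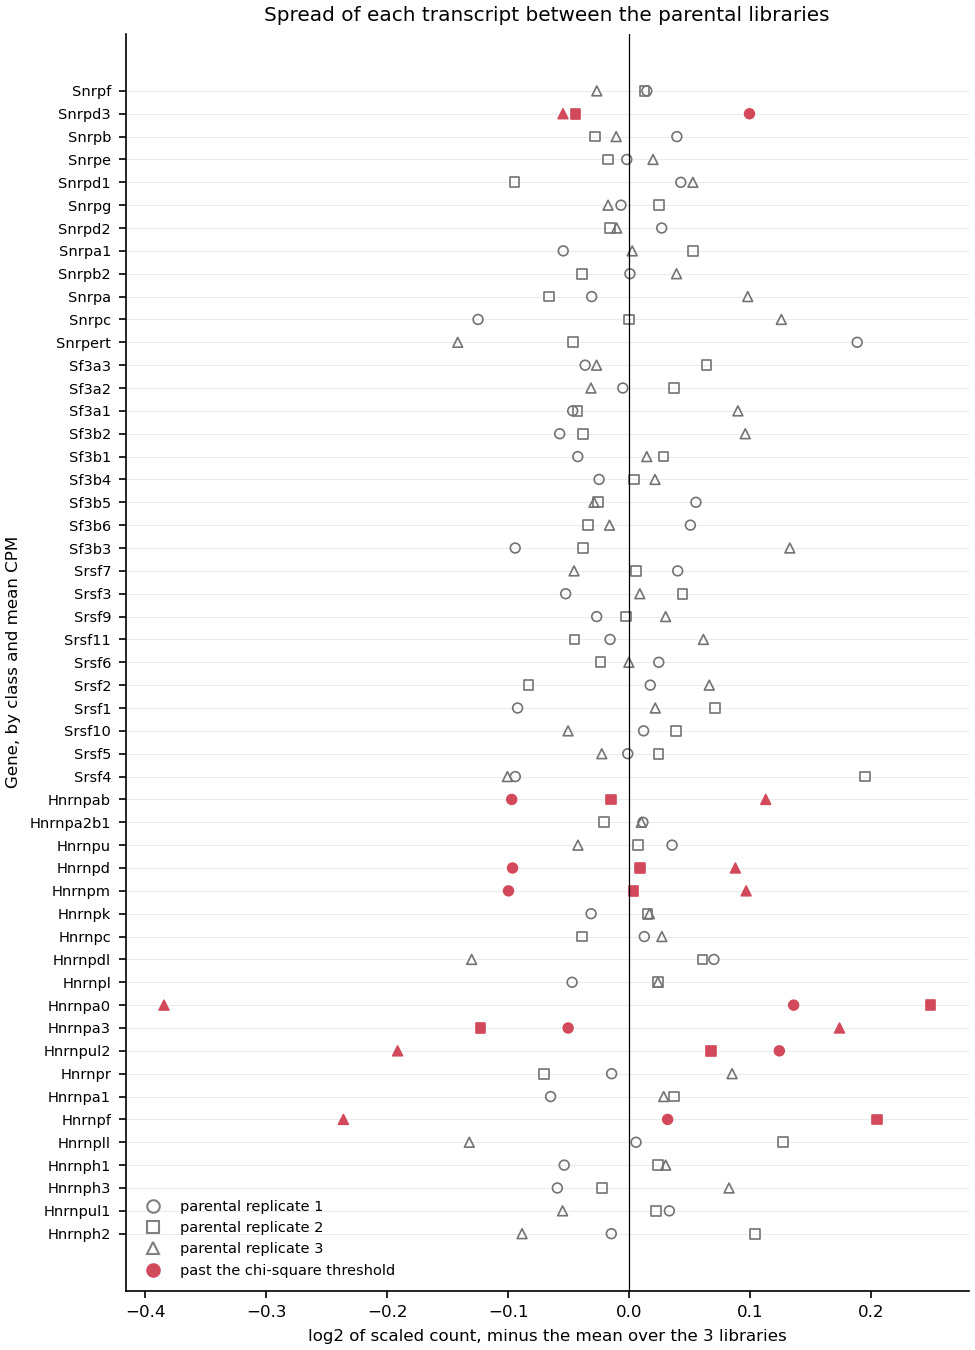
Scaled count of each of 51 genes in each parental library (symbols) as log2, minus the mean over the libraries, in the order of the plot of levels; filled red symbols are the 8 genes past the chi-square threshold. Of the 3 libraries, replicate 3 lies farthest left in Hnrnpa0, Hnrnpf and Hnrnpul2 and farthest right in Hnrnpab, Hnrnpa3, Hnrnpd and Hnrnpm.

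Reads can be shared with other genes at a 3' end. Genes on the opposite strand overlap the annotated ends of Hnrnpab (Phykpl), Hnrnpu (Cox20), Hnrnph3 (Rufy2), Snrpf (Ccdc38), Srsf2 (Mettl23) and Srsf4 (Gm12992), and a gene on the same strand overlaps that of Hnrnpul2. Whether strand was used in counting is not given, so these levels are uncertain to that extent. Near-identical copies can likewise take or give reads. The last 500 bases of each gene's annotated transcripts were searched against all GENCODE M21 transcripts, and 9 of the 52 genes matched another annotated gene at 95% identity or more over at least 100 bases. Hnrnpa3 matched 24 other genes, 22 of them pseudogenes, and the copies listed in the table had 58 counts together, 5.49 CPM beside its own 225 CPM. Snrpa matched 4 pseudogenes and Snrpc matched 3, with 2 and 7 counts in the copies the table lists. Hnrnpc, Hnrnph2, Sf3b4 and Snrpd1 matched 1 copy each, and Snrpe and Snrpert matched each other. For the other 43 genes the search found 0 copies at these ends. Shorter 3' ends that are not annotated were not searched, and copies under these limits would be missed. Srsf3 and Hnrnpa1 had 0 matches, although Srsf3-ps, Hnrnpa1l2-ps and Hnrnpa1l2-ps2, left out by symbol, carry related names. No source used here gives the rule for reads that match several genes. The levels of at least these 9 genes are therefore uncertain. At 100 CPM or more, 15% of the 40 genes of this set and 17.5% of 2013 protein-coding genes had such a copy.

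Features of gene structure, which the choice by symbol did not use, were counted and not tested. In GENCODE M21, 51 of the 52 genes are protein-coding. A transcript annotated for NMD was listed for 9 of 11 Srsf genes, 10 of 20 Hnrnp genes, 4 of 11 protein-coding Snrp genes, 1 of 6 Sf3b genes and 0 of 3 Sf3a genes. Together that was 47.1% of 51 genes, and 52.5% of the 40 at 100 CPM or more, against 29.9% of 2013 protein-coding genes at that level. The median number of annotated transcripts was 7 in those 40 genes and 5 in the 2013, and the shares were not adjusted for it. A retained-intron transcript was listed for 74.5% of the 51 and 75% of the 40, against 69.3%. Among the 11 Srsf genes, Srsf10 and Srsf12 had no annotated NMD transcript. Counts of 3' ends do not tell these transcripts from the coding ones where they share an end.

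Of the 51 protein-coding genes, 11 (21.6%) have another protein-coding gene that starts within 1000 bases on the opposite strand and is transcribed away from them. At 100 CPM or more the share was 20% of 40 genes, against 13.1% of 2013 genes. The hnRNPs held 7 of these 11. Hnrnpa2b1 lies head to head with Cbx3, which encodes heterochromatin protein HP1 gamma, with 466 bases between the starts. Hnrnpa1 lies head to head with Cbx5, for HP1 alpha, with 616 bases between. In these 2 pairs the levels ran in opposite order. Cbx3 had 75.3, 78.1 and 73.2 CPM beside 1584 ± 12.4 CPM of Hnrnpa2b1, and Cbx5 had 459.7, 404 and 463 CPM beside 171 ± 7.56 CPM of Hnrnpa1 (SD, n = 3). Srsf7 lies head to head with Ttc39d, which had 0 counts in all 3 libraries, and Srsf11 lies 23 bases from Lrrc40, which had 42.3 ± 7.19 CPM (SD, n = 3). In 9 of the 10 pairs whose partner is in the table the splicing gene was the higher in 3 of 3 libraries, and Hnrnpa1 with Cbx5 was the exception. The group had a median of 289 CPM, against 0.941 CPM over all genes, of which 4383 had 0 counts. How often a partner lies lower for other genes at such levels was not tested, so the tally is a description only. The same tally was not made for other head-to-head pairs.

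Other genes of splicing, from 10 lists by function, were set beside the group. Of 143 genes analysed of 147 listed, 137 reached 1 CPM by mean and 73 reached 100 CPM, and 10 of 137 tested varied between the libraries, against 2.80% of all genes. At 100 CPM or more, 9 of 73 varied, against 10.1% of all genes at that level. Srrm1, an SR-related coactivator, had the largest spread among those 10 with more than 100 CPM, at 174, 205 and 253 CPM (adjusted p = 6.54e-09). Snrnp70, the third U1-specific protein, had 539.8, 542 and 643 CPM (adjusted p = 2.16e-07) and thus stood above Snrpa and Snrpc in every library. The list of U2 auxiliary genes was led by U2af1, which reads the 3' splice site AG, with 258 ± 7.38 CPM, and Puf60 with 214 ± 9.90 CPM (SD, n = 3). U2af1l4, the relative of U2af1, had 0 counts.

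In the tri-snRNP list, Txnl4a had 313 ± 1.76 CPM and Snrnp27 253 ± 6.92 CPM, while Prpf8, the large protein at the catalytic centre, had 36.2 ± 4.39 CPM (SD, n = 3). Eftud2, a GTPase of U5, and Prpf31 varied between the libraries, the former with 109, 147 and 115 CPM (adjusted p = 0.00104) and the latter with 147, 138 and 115 CPM (adjusted p = 0.0474). The LSm list, whose products form the ring on U6 RNA, a decay ring and, with Lsm10 and Lsm11, part of the U7 snRNP ring, was led by Lsm4 with 1541, 1435 and 1358 CPM, which also varied (adjusted p = 8.86e-08), and by Lsm6 with 398 ± 12.6 CPM (SD, n = 3). In the Prp19 and catalytic list, Bud31 had 309.8 ± 8.15 CPM and Bcas2 307 ± 20.8 CPM, with 0 of 21 genes varying. The exon junction complex was led by Rbm8a (Y14) with 1110.2, 1116 and 1235 CPM, which varied (adjusted p = 5.26e-05), and its partner Magoh with 367 ± 11.0 CPM (SD, n = 3).

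Among the kinases that phosphorylate SR proteins, Srpk1 had 240.1 ± 12.2 CPM and Prpf4b 131 ± 10.1 CPM, above the 4 Clk genes, which lay between 30.2 and 40.8 CPM by mean. In snRNP assembly, Strap had 415 ± 3.69 CPM, Phax 352 ± 10.3 CPM and Smn1, the gene lost in spinal muscular atrophy, 134 ± 7.27 CPM (SD, n = 3). The minor spliceosome was led by Zcrb1 with 307 ± 8.12 CPM and Zrsr2 with 218 ± 15.1 CPM (SD, n = 3). Pdcd7 varied there, at 34.2, 35.8 and 50.5 CPM (adjusted p = 0.0453). Zrsr1 had 1 count in the 3 libraries.

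Of 36 other regulators, Pcbp1, a binder of C-rich runs, led with 584 ± 25.5 CPM, followed by Rbm39 with 512, 501 and 567 CPM, which varied (adjusted p = 0.0132). Sfpq and Rbm25 varied as well, with 216, 224 and 259 CPM (adjusted p = 0.0287) and 209, 206 and 248 CPM (adjusted p = 0.0101). Some regulators known from single tissues were at or near 0, and others were not. Esrp1, the epithelial splicing regulator, had 0 counts, which allows up to 0.283 CPM, and its paralog Esrp2 had 0.281 ± 0.299 CPM (SD, n = 3). Rbfox1 and Nova2, known from neurons, had 0.0829 ± 0.144 and 0.307 ± 0.312 CPM, and Nova1, the paralog of Nova2, had 9.82, 11.2 and 5.30 CPM in replicates 1 to 3, while Rbfox2 had 56.0 ± 2.75 CPM (SD, n = 3). Ptbp1 had 107 ± 6.68 CPM beside 20.2 ± 3.16 CPM of its neuronal paralog Ptbp2 (SD, n = 3).

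**Figure D4:**
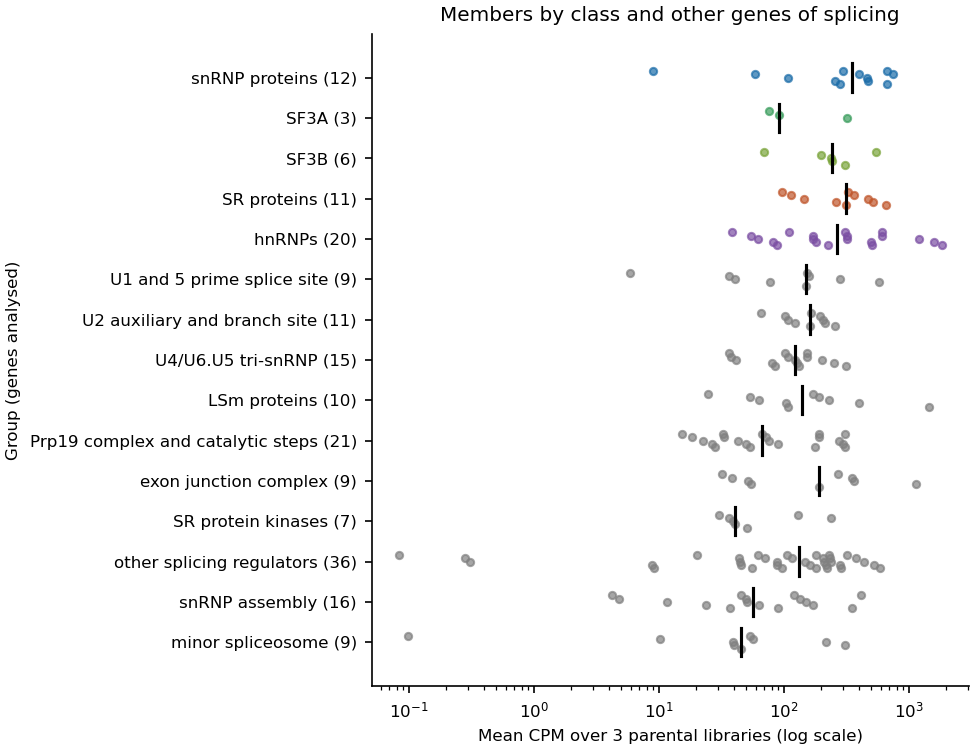
Mean CPM over the 3 parental libraries (log axis) of single genes with a count, by class of the group (coloured) and by list of other splicing genes (grey), with the median of all genes of the row as a bar and their number in brackets. The medians of the coloured classes run from 91.1 CPM (SF3A) to 349 CPM (snRNP proteins), and those of the grey lists from 40.8 CPM (SR protein kinases) to 193 CPM (exon junction complex).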

How the data were processed

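The authors deposited 1 table of counts, whole numbers for each gene and barcode. Per the file headers they used STAR (2.7.5b), the Drop-seq tools (1.12) and Picard (2.18.26), with the genome GRCm38, GENCODE M25 and untrimmed reads. Libraries carried molecular identifiers, per the labels' protocols; the sources used here do not say if counts are collapsed by them. Intervals and floors cover counting error only.

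Each column annotated WT was given to the parental sample of its replicate number. The other 6 columns exceed the 3 STING-N153S samples and were not used, so the planned edgeR comparison was not run. Members and lists were chosen with earlier results of these data known. All members are named; other genes are the leading or varying genes of each list, or were picked after their values were seen. Not every leading gene is reported here. The promoter, copy and gene-structure searches were also chosen after the files were seen.

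Library totals of 3358908, 4020023 and 3210024 counts gave CPM. The floor is 3 counts. Genes expected to have 5 or more counts per library entered the chi-square test (false discovery rate 0.05). It was tested on counts simulated with counting error only (Poisson) at the parental levels and totals (24181 genes, 200 of them changed). The changed genes were drawn only from those with higher expected counts. In that setting 52% of 1.5-fold, 80.5% of 2-fold and 97.5% of 4-fold changes were recovered, and 4.59%, 1.83% and 5.8% of calls were false. The real libraries vary beyond counting error (common biological coefficient of variation 0.0568), so these shares may not hold for them. Scaling alternatives came from edgeR 4.0.16 and DESeq2 1.42.0 in R 4.3.3; tests used scipy 1.17.1 and the copy search blastn 2.17.0. Gene positions are those of GENCODE M21.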

Additional observations from a re-analysis of the deposited data

How the results depend on the processing

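No paired analysis was possible because STING-N153S columns were not mapped. For the same reason other fits of that comparison (DESeq2, no scaling, no filter on low counts, the replicate block and leaving out samples) were not run. With library totals, TMM scaling, expected counts of at least 1 or 10, or pairwise exact binomial tests, 8 to 9 of the 51 genes varied, and the 8 named genes were called under each of them; over all genes 274 to 322 varied. Leaving out 1 library gave 0 to 8 of the 51 genes and 61 to 274 of all genes, with the lowest number in both without replicate 3, the smallest library; the cause was not tested. Without replicate 1, 4 of the 51 varied.

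Between 39 and 42 genes reached 100 CPM, and 51 and 50 reached 1 and 10 CPM under every alternative run. The summed level was 18799 ± 215 CPM (SD, n = 3). It came to 20706 CPM after the 20 highest genes were taken out of the totals, a setting that raises each remaining gene and moved 45 of 52 single genes by over 1 SD. TMM, median-ratio and upper-quartile scaling moved 0 of 156 values that far. The 14 pair ratios do not depend on scaling.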

Other observations

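Srsf3-ps, a symbol left out of the group, had 2.38, 3.23 and 6.85 CPM in parental replicates 1 to 3, from 8, 13 and 22 counts (adjusted p = 0.174 by the chi-square test of counts). Hnrnpa1l2-ps2 had 3 counts and Hnrnpa1l2-ps 0.

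Hnrnpa0 and Sf3b5 are single-exon genes, and this class was set beside other protein-coding genes, without histone genes. Of 163 single-exon genes tested, 8 varied between the libraries, 2 of them lower and 6 higher in replicate 3 than in both others. Of 9563 genes with more exons, 264 varied, 114 lower and 108 higher in replicate 3. Hnrnpa0 is 1 of the 2 single-exon genes that were lower.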
